A study of Mus musculus with 6 samples.

Results

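The mitochondrial respiratory chain genes are the protein-coding genes that were selected by name as subunits and assembly factors of complexes I to V, together with the genes of the mitochondrial genome. The name rule found 121 of the 55487 genes counted, of which 108 are nuclear and 13 are encoded by mitochondrial DNA (mtDNA). Cox8b and Cox7a1, brown fat and muscle isoforms, were left out by name. Of the nuclear genes, 87 were placed with the subunits and 21 with the assembly factors, which help to build a complex without remaining in it. Complex I, NADH dehydrogenase, and complex II, succinate dehydrogenase, pass electrons to ubiquinone. Complexes III and IV carry them by cytochrome c to oxygen, and complex V, ATP synthase, uses the proton gradient that complexes I, III and IV build. Apart from complex II, which is wholly nuclear, each complex joins subunits made from both genomes, and vascular smooth muscle relies on it for part of its ATP.

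The 6 libraries came from aortas of male mice, 3 of them Prdm16 iSM KO and 3 controls. The adventitia had been stripped off, and ribosomal RNA was depleted before sequencing. Both groups carried the Myh11-CreERT2 transgene, in which the promoter of a smooth muscle myosin drives a Cre recombinase that tamoxifen activates. The transgene is on the Y chromosome, which limits the model to males. The iSM KO mice were Prdm16 F/F, with loxP sites around exon 9, and the controls were Prdm16 W/W. All strains were kept on a C57BL/6 background. Mice of both groups received tamoxifen at 1 mg per mouse per day for 10 days from 8 weeks of age, and aortas were taken after a washout of 2 weeks and 60 more days. Since Cre acts in smooth muscle, Prdm16 in other cells of the wall stays intact in this model.

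Libraries held 24911609 to 40460467 counts, the fewest in control 3. Levels are given as CPM, counts scaled to a common library size with edgeR's TMM factors. Differences were tested by edgeR's quasi-likelihood test over all 16565 genes with a count over 10 in every library of at least 1 group, FDR is the Benjamini-Hochberg adjusted p, and SE is the standard error of a log2 fold change. Prdm16 measured 183, 223 and 179 CPM in control aortas and 93.8, 113 and 79.8 CPM in iSM KO, a log2 fold change of -1.03 (FDR = 0.00265). These counts cover the whole gene, whereas Cre removes exon 9, so this change does not measure the efficiency of deletion. The 8 smooth muscle markers checked, Myh11 and Acta2 among them, summed to 22500 to 27500 CPM in controls. They summed to 24300 to 26700 CPM in iSM KO. Of the 8, 2, Myocd and Des, were higher in iSM KO at an FDR under 0.05, where 4.26% of all tested genes were. In bulk tissue, fewer cells of a type and less RNA per cell cannot be told apart. Control 3 and control 1 stood apart from the other controls for nuclear and for mtDNA-encoded genes, respectively. For some of the respiratory chain genes named below, log2 fold changes without them are given. These are mainly genes where the sign turns or the fold change itself moves by over 1.5 times. Not every gene whose sign turns is listed, as nuclear estimates below 0 went from 78 to 60 of 103 without control 3. Smaller shifts are mostly not given.

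Of the 121 genes, 116 were tested. The filter left out Cox6a2, Cox7b2, Cox8c, Cox5b-ps and a second entry of Atp5o. Most of the respiratory chain did not pass the test. At an FDR under 0.05, 2 genes, Sdhc and Cox4i2, were higher in iSM KO aortas, where 4.26% of all tested genes were called higher. Another 3, Ndufs5, Cox6c and Atp5l, were lower, where 3.30% of all tested genes were called lower. With a fold change over 2 as well, Cox4i2 was the higher gene, against 1.40% of all tested genes, and Ndufs5 the lower one, against 1.38%. Sdhc and Cox4i2 belong to complexes II and IV, and the lower genes to complexes I, IV and V. At an unadjusted p under 0.05, 3 genes were higher and 14 lower, where 22.1% of all tested genes passed in either direction.

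**Figure D1:**
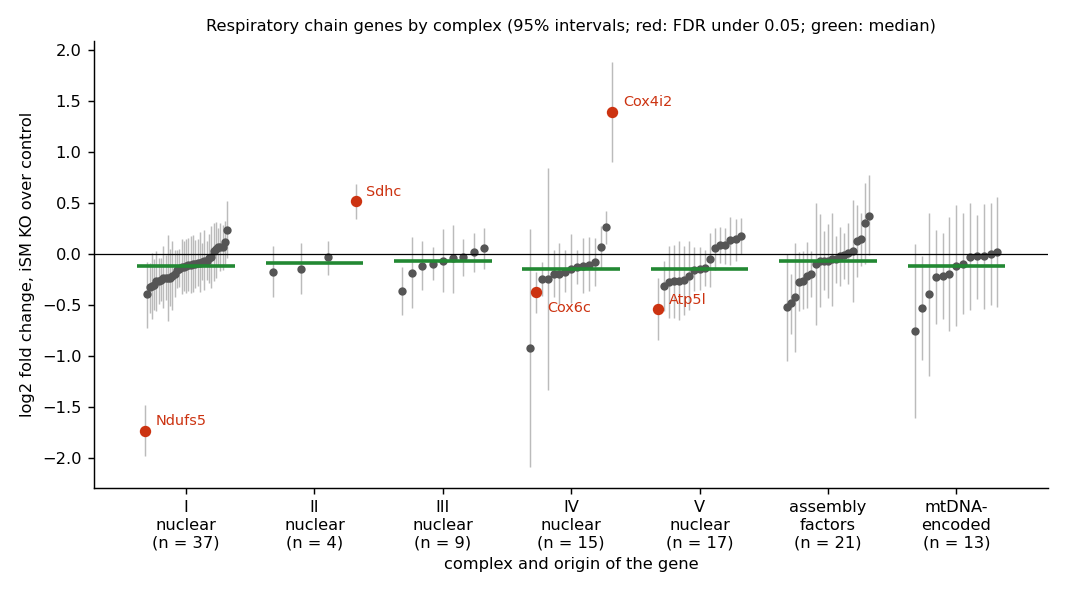
The log2 fold change of each tested gene is plotted by complex and origin, with vertical lines for 95% intervals, red points for an FDR under 0.05 and green lines for medians. Of 116 genes, 108 had an estimate between -0.5 and 0.5, and the 5 red points lie in complexes I, II, IV and V.

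Ndufs5, a small accessory subunit of complex I, had the smallest adjusted p of these genes, and its reads could be divided with a copy. Ndufs5 (ENSMUSG00000028648) occupies bases 123712710 to 123718202 of chromosome 4 in build GRCm38, on the minus strand. Ndufs5-ps (ENSMUSG00000081824) is a processed pseudogene on the plus strand of chromosome 16, from 42955631 to 42955949. Both are shown because the counts of Ndufs5 depend on telling them apart. The first 300 of the 321 coding bases of Ndufs5 and the matching bases of the copy, from GENCODE release M21, run as follows, with the bases that differ in capitals.
Ndufs5: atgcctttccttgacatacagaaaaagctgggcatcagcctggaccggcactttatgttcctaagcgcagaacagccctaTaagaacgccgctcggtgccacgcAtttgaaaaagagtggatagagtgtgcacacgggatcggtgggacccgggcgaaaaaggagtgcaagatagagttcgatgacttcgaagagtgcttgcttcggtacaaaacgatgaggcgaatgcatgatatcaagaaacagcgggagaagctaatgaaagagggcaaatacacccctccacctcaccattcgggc
Ndufs5-ps: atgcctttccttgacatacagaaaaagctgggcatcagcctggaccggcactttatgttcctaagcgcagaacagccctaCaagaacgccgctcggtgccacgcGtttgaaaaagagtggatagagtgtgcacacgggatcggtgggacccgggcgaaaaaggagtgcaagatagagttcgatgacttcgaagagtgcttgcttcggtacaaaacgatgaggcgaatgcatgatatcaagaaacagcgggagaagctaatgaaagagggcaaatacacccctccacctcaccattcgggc
The 319 aligned bases of the copy differed from Ndufs5 at 2 positions, T81C and A105G, counted from the first base of the start codon with the base of Ndufs5 first.

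Ndufs5 measured 22.1, 21.4 and 24.9 CPM in control aortas and 7.16, 6.22 and 7.26 CPM in iSM KO, so that every iSM KO library lay below every control. This was a log2 change of -1.73 (SE 0.11, FDR = 7e-05). The copy went the other way, from 0.806, 0.468 and 0.922 CPM in controls to 10.9, 11 and 10.5 CPM in iSM KO, which was a log2 change of 3.92 (SE 0.22, FDR = 3.26e-05). The copy thus took 3.08% ± 0.812 (SD, n = 3) of the counts of the pair in controls and 61.1% ± 2.47 (SD, n = 3) in iSM KO. When both were counted as 1 gene, the levels were 22.9, 21.9 and 25.9 CPM in control aortas and 18.1, 17.2 and 17.7 CPM in iSM KO. The iSM KO libraries still lay below all controls, with a log2 change of -0.41 (SE 0.09, FDR = 0.0314). Ndufs5 is then called lower but is no longer past a fold change of 2.

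**Figure D2:**
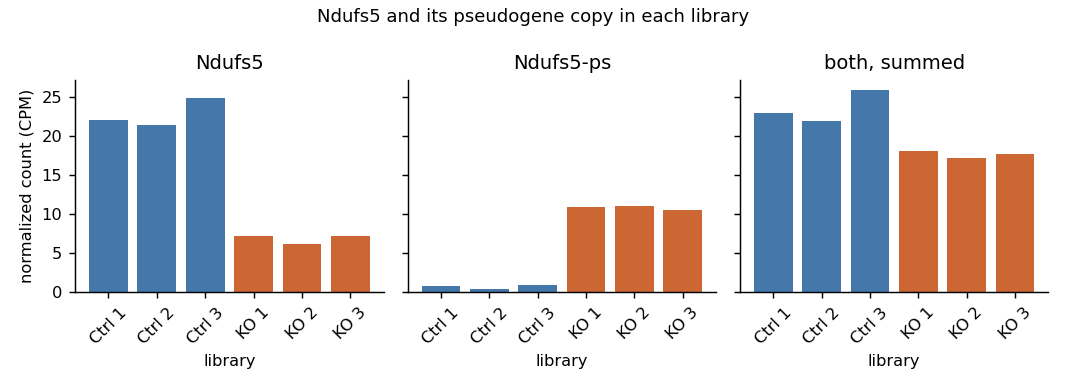
Bars give the CPM of Ndufs5, of Ndufs5-ps and of both summed in each library (blue for control, orange for iSM KO). Ndufs5 lay at 6.22 to 7.26 CPM in iSM KO against 21.4 to 24.9 CPM in controls, while the sum lay at 17.2 to 18.1 against 21.9 to 25.9 CPM.

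Ndufs5 is on the same chromosome as the targeted gene, 30.6 Mb from Prdm16, which spans 154316125 to 154636873. The other tested genes of the chain on chromosome 4 were Ndufaf4, Ndufaf6, Ndufb6, Sdhb and Uqcrh. Their log2 fold changes lay between -0.17 and -0.06, and their FDRs were 0.405 or more. Why reads of the pair were divided differently in the 2 groups was not tested.

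The remaining 36 nuclear subunits of complex I did not pass the test. The 37 tested had a median of -0.11 on the log2 scale, and 30 had an estimate below 0. Ndufa11, an accessory subunit of the membrane arm, had both the highest level per length of the nuclear complex I subunits, at 83.0 CPM per kb of transcript, and the largest estimate among them. It measured 32.9, 46.4 and 45.2 CPM in control aortas and 49.4, 47.9 and 49.6 CPM in iSM KO (log2 fold change 0.24, FDR = 0.297). Without control 1, its lowest library, the estimate was 0.1. The 8 complex I assembly factors, Ndufaf1 to Ndufaf8, had a median of -0.06 on the log2 scale, and none had an FDR under 0.05 or an unadjusted p under 0.05.

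In complex II, Sdhc rose. This subunit, which anchors succinate dehydrogenase in the inner membrane and holds part of its ubiquinone site, measured 57.8, 59.2 and 65.5 CPM in controls. In iSM KO it measured 88.6, 88.1 and 84.5 CPM, and each lay above all controls. This gave a log2 change of 0.52 (SE 0.08, FDR = 0.00444), and no pseudogene copy was found at 95% identity. Sdhc (ENSMUSG00000058076) occupies bases 171127165 to 171150603 of chromosome 1, minus strand. The other subunits did not pass the test. Sdha, the flavoprotein with the succinate site, measured 95.7 ± 4.62 CPM (SD, n = 3) in controls and 93.5 ± 2.12 CPM (SD, n = 3) in iSM KO (log2 fold change -0.03, 95% interval -0.20 to 0.13). The iron-sulfur subunit Sdhb had a log2 fold change of -0.17 (FDR = 0.405), which was -0.05 without control 3. The second anchor, Sdhd, had a log2 fold change of -0.14 (FDR = 0.485). The 95% interval of Sdhc, 0.35 to 0.69, did not overlap that of Sdha, Sdhb or Sdhd. The difference between subunits was not itself tested. The 4 assembly factors Sdhaf1 to Sdhaf4 had log2 fold changes of -0.52 to 0.03, none with an FDR under 0.05.

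Complex III had no called gene. The median log2 fold change of its 9 nuclear subunits was -0.06. Uqcrb, which binds ubiquinone, had the lowest estimate. It measured 42.7, 33.4 and 43.1 CPM in control aortas and 30.7, 31.3 and 31.0 CPM in iSM KO, with groups that did not overlap (log2 fold change -0.36, FDR = 0.0804). Cyc1, the cytochrome c1 subunit, had the largest estimate, 0.06 (95% interval -0.14 to 0.26). Uqcrh, the hinge protein near the cytochrome c site, had the highest level per length of the nuclear subunits, 96.5 CPM per kb. Its log2 fold change was -0.11 (FDR = 0.598), and 0.01 without control 3.

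In complex IV, Cox4i2 rose and Cox6c fell. Cox4i2 is the isoform of subunit 4 known from lung and from low oxygen, while Cox4i1 is the common one. Cox4i2 was a low gene, with 23 to 50 counts per control library. It measured 1.13, 1.30 and 0.964 CPM in control aortas and 2.82, 2.89 and 3.37 CPM in iSM KO, all iSM KO libraries above all controls (log2 fold change 1.40, SE 0.22, FDR = 0.00561). Cox4i1 measured 96.4, 93.2 and 129 CPM in controls, and the iSM KO libraries lay within that range at 98.5 ± 2.08 CPM (SD, n = 3; log2 fold change -0.11, FDR = 0.646). Without control 3 its estimate was 0.05. Per length, Cox4i2 made up 1.21%, 1.44% and 0.776% of both isoforms in controls and 2.94%, 3.01% and 3.37% in iSM KO, so that Cox4i1 remained the main isoform in every library. Cox4i1 shares 5986 bp with a gene on the same strand, Gm20388, which held 20237 counts over the 6 libraries, and how their reads were divided, which these shares depend on, is not known. Cox4i2 (ENSMUSG00000009876) occupies bases 152754173 to 152765037 of chromosome 2, plus strand.

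Cox6c, an accessory subunit of complex IV, measured 73.1, 62.6 and 77.6 CPM in control aortas and 54.8, 56.0 and 54.1 CPM in iSM KO. All 3 iSM KO libraries were below the lowest control, and the log2 fold change was -0.37 (SE 0.09, FDR = 0.0398). Its gene, on the minus strand of chromosome 15 from 35925886 to 35938246, overlaps 5344 bp of Vps13b on the opposite strand. The call was lost when any library other than control 2 was left out, with the FDR between 0.0845 and 0.139.

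The other isoform pairs of complex IV were not called. Cox6a1, the widely expressed form, had the highest level per length of all nuclear genes of the chain, 162 CPM per kb, and a log2 fold change of -0.14 (FDR = 0.634), which was 0.07 without control 3. Its muscle form Cox6a2 had 2 counts in control 1 and 0 elsewhere. Cox6b2 was at 0.315 to 1.16 CPM, against 30.3 to 42.4 CPM for Cox6b1, and Cox7b2 was at 0 in all libraries. Cox7b, Cox7a2 and Cox7a2l had log2 fold changes of -0.17, -0.24 and -0.19 (FDR 0.314, 0.1 and 0.315). Cox8a, a small accessory subunit of complex IV, measured 70.7, 77.2 and 71.0 CPM in control aortas and 85.7, 92.1 and 85.4 CPM in iSM KO. Each iSM KO library lay above all controls, but the gene missed the threshold (log2 fold change 0.27, FDR = 0.0677). Cox8c, its counterpart, had 2 counts in control 1 and 0 elsewhere. Ndufa4, now placed in complex IV, had a log2 fold change of -0.12 (FDR = 0.345). Ndufa4l2, a paralogue induced by hypoxia, measured 2.24, 0.833 and 0.671 CPM in control aortas and 0.466, 0.487 and 1.04 CPM in iSM KO. Its groups overlapped, and the 95% interval of its log2 fold change, -2.09 to 0.25, was the widest of the nuclear genes. Without control 1, its highest library, the estimate moved from -0.92 to -0.19. Of the 9 complex IV assembly factors, Cox16 came nearest to a call, with a log2 fold change of -0.48 (FDR = 0.0557). It lies within the span of a longer gene on the same strand, Gm20498, and how reads of the pair were divided was not tested.

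At an FDR under 0.1, Cox8a joined the higher genes, for 3 in all where 6.43% of all tested genes were called higher. Cox16 and Uqcrb joined the lower genes, for 5 in all where 5.31% were called lower.

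**Figure D3:**
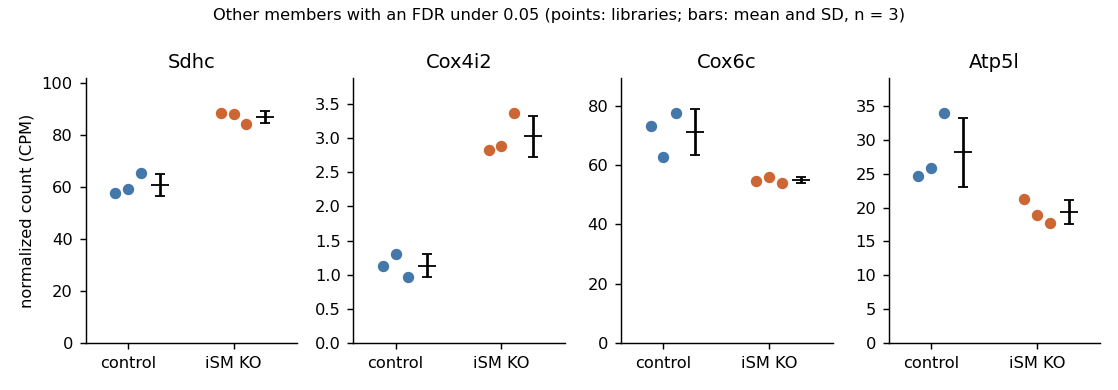
Points give the CPM of Sdhc, Cox4i2, Cox6c and Atp5l in each library, with the mean and SD of 3 libraries beside them and axes that start at 0. In each panel the groups do not overlap, and the mean of Sdhc was 60.8 ± 4.10 CPM in control aortas and 87.1 ± 2.23 CPM in iSM KO.

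In complex V, Atp5l, subunit g of the membrane part of ATP synthase, was called lower, but it too has near-identical copies. It measured 24.7, 25.8 and 34.0 CPM in control aortas and 21.3, 18.9 and 17.8 CPM in iSM KO, with groups that did not overlap (log2 fold change -0.54, SE 0.13, FDR = 0.0443). Its processed pseudogene Gm10221, identical over 309 bases, measured 23.7, 22.5 and 27.3 CPM in control aortas and 26.0, 24.8 and 27.5 CPM in iSM KO. Summed with its 10 copies, 7 of which had counts, Atp5l measured 49.1, 48.7 and 62.3 CPM in control aortas and 47.5, 44.5 and 45.7 CPM in iSM KO. The sum did not pass the test (log2 fold change -0.21, FDR = 0.265). Atp5l alone also missed the threshold when control 3 (FDR = 0.0861) or any of the iSM KO libraries (FDR 0.0685 to 0.162) was left out. The copies took 47.3% ± 2.12 (SD, n = 3) of these counts in controls and 57.8% ± 2.97 (SD, n = 3) in iSM KO.

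Atp5b, the catalytic beta subunit, had the highest level per length of the nuclear complex V subunits, 145 CPM per kb, and a log2 fold change of 0.09 (95% interval -0.09 to 0.26). Atp5g1, Atp5g2 and Atp5g3 encode the same mature ring subunit c. Atp5g3 made up 73.5% to 74.0% of the 3 per length in controls and 75.4% to 77.1% in iSM KO. It had the largest estimate of the nuclear complex V subunits, 0.18 (FDR = 0.231), and Atp5g1 and Atp5g2 had 0.14 and -0.05. Pseudogenes took 69.1% to 77.2% of the counts that Atp5g2 and its copies share, which makes the level of Atp5g2 alone uncertain. Another complex I gene, Ndufb4, left 78.5% to 84.9% of such counts to its copies, and its log2 fold change was -0.23 alone and -0.02 with them.

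Over the 103 tested nuclear genes the median log2 fold change was -0.10, where the median over all tested genes was -0.01. Estimates were below 0 for 78 of the 103, or 75.7%, against 52.4% of all tested genes. Among all 116 genes, 22 were lower in every iSM KO library than in every control, where 13% of all tested genes were. Only 6 were higher in that sense, where 15.0% of all tested genes were. The nuclear median depended largely on control 3. The count of genes lower without overlap cannot fall when a control is left out. Control 3 held the highest value for 70 of the 103 nuclear genes. Its median log2 level lay 0.20 above the mean of the 6 libraries. That level was -0.06 and 0.00 in controls 1 and 2 and -0.06 to -0.03 in iSM KO. Without control 3, 23 of the 116 genes were lower without overlap, against 17.9% of all tested genes, and 18 were higher, against 20.0%. Without control 2 these counts were 35 and 11, against 22.2% and 21.3%. Without control 3 the nuclear median was -0.02, and 60 of the 103 estimates were below 0, against 51.9% of all tested genes. In that fit 1 gene of the chain, Ndufs5, was called lower, where 379 of 16975 tested genes were. Ndufs5 alone was also called lower when any of the iSM KO libraries was left out.

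Control 3 also differed in other measures. Protein-coding genes held 59% of its counts, against 64.6% to 67.6% in the other libraries. In control 3 the brown adipocyte markers summed to 76.0 CPM over 8 genes, against 32.4 and 37.2 CPM in the other controls. In iSM KO they summed to 24.2 to 26.3 CPM, and none of the 8 was at 0 in all libraries. Dio2 was highest in control 1 and Adrb3 in control 2, while the others of the list were highest in control 3. Ucp1, the uncoupling protein of brown fat mitochondria, measured 33.0 CPM in control 3, 0.269 and 4.22 CPM in controls 1 and 2, and 1.09 to 2.85 CPM in iSM KO. Of the brown adipocyte markers, 2 of the 5 tested were lower in iSM KO, Cidea and Cpt1b, where 3.30% of all tested genes were. Of the 8 general adipocyte markers, 5 of the 7 tested were lower, against the same 3.30% of all tested genes. The 8 summed to 508 to 646 CPM in controls and 464 to 553 CPM in iSM KO. Most of that sum was Plin4, at 443 to 478 CPM in controls and 454 to 546 CPM in iSM KO. The remaining 7 summed to 30.3, 185 and 92.2 CPM in controls and to 9.25, 7.77 and 14.2 CPM in iSM KO. Among them Adipoq was highest in control 2, at 11.1 CPM, with 1.40 and 4.61 CPM in controls 1 and 3 and 0.172 to 0.630 CPM in iSM KO. Genes with short transcripts were also high in control 3. The 729 tested protein-coding genes under 1000 bases had a median deviation of 0.15 there and a median log2 fold change of -0.12, against -0.02 for longer ones. Within the nuclear genes of the chain, the median was -0.15 for the 53 under 1000 bases and -0.06 for the other 50. The part of adipocyte RNA, of transcript length and of the protein-coding share in the result was not tested.

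The fits limited the size of a change in most genes. The 95% interval of the log2 fold change lay within -1 to 1 for 108 of the 116 genes, and its median half-width was 0.26 for nuclear and 0.52 for mtDNA-encoded genes.

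**Figure D4:**
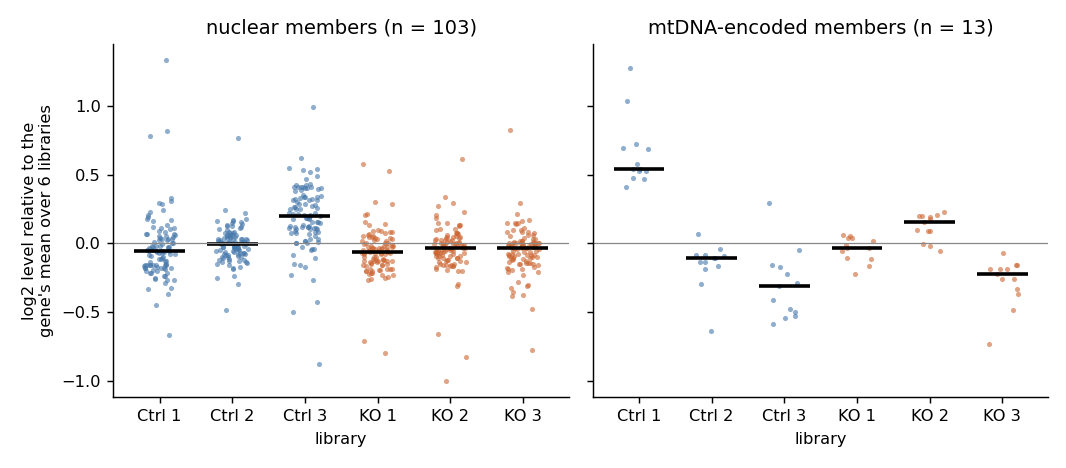
Each point is the log2 level of a gene in a library relative to its mean over the 6 libraries, with black lines for medians (blue for control, orange for iSM KO). Nuclear genes were highest in control 3, with a median of 0.20, and mtDNA-encoded genes in control 1, with a median of 0.54.

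The 13 mtDNA-encoded genes took 2.79% to 4.95% of protein-coding counts, and none passed the test at an FDR under 0.05. At an unadjusted p under 0.05, 1 of them, mt-Nd6, did. All 13 were highest in control 1. Their counts summed to 32100, 20100 and 17200 CPM in controls and to 21700, 24400 and 19100 CPM in iSM KO. The iSM KO libraries thus lay within the range of the controls. The median log2 fold change was -0.11, and it turned to 0.22 without control 1.

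The 7 complex I genes mt-Nd1, mt-Nd2, mt-Nd3, mt-Nd4, mt-Nd4l, mt-Nd5 and mt-Nd6, which encode the core of the membrane arm, had log2 fold changes of -0.22, -0.02, -0.39, 0.02, -0.03, -0.02 and -0.53. Without control 1 these were 0.07, 0.31, 0.22, 0.36, 0.25, 0.21 and -0.25, so that 5 of the 7 turned from below to above 0. Without control 3, mt-Nd4 turned to -0.20. The lowest, mt-Nd6, is the protein-coding gene of the light strand. It measured 324, 159 and 241 CPM in control aortas and 168, 193 and 140 CPM in iSM KO, and the groups overlapped (FDR = 0.21). The cytochrome b gene mt-Cytb of complex III measured 4270, 3010 and 2190 CPM in control aortas and 3180, 3520 and 2770 CPM in iSM KO (95% interval of the log2 fold change -0.50 to 0.50), and without control 1 its log2 fold change was 0.28. Of the catalytic core of complex IV, mt-Co1 was the highest gene of the chain per length, at 4170 CPM per kb. It measured 9190, 5630 and 5100 CPM in control aortas and 6170, 7040 and 5540 CPM in iSM KO (log2 fold change -0.09, FDR = 0.85). For mt-Co2 and mt-Co3 the log2 fold changes were -0.21 and -0.19 (FDR 0.544 and 0.688). Without control 1, mt-Co1, mt-Co2 and mt-Co3 turned to 0.22, 0.04 and 0.19. The overlapping complex V genes mt-Atp8 and mt-Atp6 had -0.75 and -0.11 (FDR 0.281 and 0.839), and without control 1 -0.08 and 0.31. For mt-Atp8 control 1 stood far above, with 272 CPM against 106 and 91.9 CPM in the other controls and 67.5 to 108 CPM in iSM KO.

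Nuclear copies of mtDNA also took reads. Annotated copies at least 95% identical held 14.1% to 16.5% of the counts of these genes and their copies together, and the copies of mt-Co2 held at least 53.7% of theirs in every library. With the copies added, the 13 genes summed to 38500, 23700 and 20200 CPM in control aortas and 25300, 28600 and 22300 CPM in iSM KO. No mtDNA-encoded gene was called in that fit, and their median log2 fold change was -0.16.

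Each complex was also summed as a level. Summed per kb of transcript, the tested nuclear complex I subunits came to 1040 to 1060 CPM per kb in iSM KO and 1050 to 1310 in controls, with the highest in control 3. The nuclear complex III subunits came to 422 to 433 and 427 to 521 CPM per kb, and the nuclear complex IV subunits to 881 to 929 and 908 to 1090. Complex II had the lowest sum, at 107 to 111 in iSM KO and 97.3 to 117 in controls, but from only 4 subunits. Complexes I, III, IV and V had 37, 9, 15 and 17 tested nuclear subunits. The sums therefore do not rank the complexes by level per gene, and the median level per gene was higher in complex II than among nuclear complex I subunits. The nuclear complex V subunits came to 836 to 873 in iSM KO and 820 to 1030 in controls. Median levels were 30 CPM per kb for nuclear subunits, 3.70 for assembly factors and 1700 for mtDNA-encoded genes.

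Nuclear respiratory chain promoters are known for sites of NRF1, of the ETS factor GABP, of estrogen-related receptors (ERR) and of YY1. RefSeq promoters on GRCm38.p6, from 250 bases before to 50 after a start, were found for 85 of the 108 nuclear genes, with 91 entries. On either strand, CGCATGCGC (NRF1) was in 11% of these entries and 1.75% of all 32851 promoters of the same length, CCGGAAG (ETS) in 30.8% and 8.86%, TCAAGGTCA (ERR) in 2.20% and 0.423%, and AAGATGGCG (YY1) in 9.89% and 1.40%. Overlapping words were each counted, and a match only describes the letters of the window. Of the 5 called genes, Ndufs5 and Atp5l had an entry. Both were called lower when counted without their copies, and Atp5l was not called with them. Their promoters are shown because they differ in these words. They are printed on the strand of the gene, with matches in capitals, for Ndufs5 at chr4:123718137-123718436 and for Atp5l at chr9:44920693-44920992, both on the minus strand.
Ndufs5: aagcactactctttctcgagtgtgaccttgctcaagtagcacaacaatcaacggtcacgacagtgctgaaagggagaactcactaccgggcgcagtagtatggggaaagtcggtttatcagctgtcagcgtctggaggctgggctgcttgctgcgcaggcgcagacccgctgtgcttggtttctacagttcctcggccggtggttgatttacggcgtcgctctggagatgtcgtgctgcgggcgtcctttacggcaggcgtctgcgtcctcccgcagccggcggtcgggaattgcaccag
Atp5l: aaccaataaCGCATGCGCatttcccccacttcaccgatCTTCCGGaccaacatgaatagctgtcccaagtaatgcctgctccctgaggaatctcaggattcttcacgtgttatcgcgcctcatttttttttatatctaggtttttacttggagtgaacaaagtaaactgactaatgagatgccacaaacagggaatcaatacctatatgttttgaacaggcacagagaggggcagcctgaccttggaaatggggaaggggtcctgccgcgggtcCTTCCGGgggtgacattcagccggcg
Atp5l held 1 NRF1 and 2 ETS words, and Ndufs5 held none of the 4 searched. Sdhc, Cox4i2 and Cox6c had no entry.

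Of the regulators of these genes, Ppargc1a rose. It encodes PGC-1α, a coactivator of mitochondrial biogenesis, and measured 4.93, 3.59 and 5.03 CPM in control aortas and 7.97, 7.68 and 7.53 CPM in iSM KO (log2 fold change 0.78, SE 0.16, FDR = 0.0192). Its relative Ppargc1b measured 6.87, 10.3 and 6.50 CPM against 12.4, 13.2 and 11.2 CPM. Its groups did not overlap either, but it missed the threshold (log2 fold change 0.63, FDR = 0.0652). Their partner Esrra had a log2 fold change of 0.25 (FDR = 0.196), and the factors Nrf1 and Gabpa had 0.17 and -0.09 (FDR 0.457 and 0.663). Tfam, which packages mtDNA and helps to start its transcription, had -0.19 (FDR = 0.538). Of 23 tested regulators of biogenesis, 2 were higher and 0 lower, where 4.26% of all tested genes were called higher and 3.30% lower. The second was Pparg, a nuclear receptor of lipid genes, with a log2 fold change of 1.19 (FDR = 0.00354). The list had a median log2 fold change of 0.01.

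**Figure D5:**
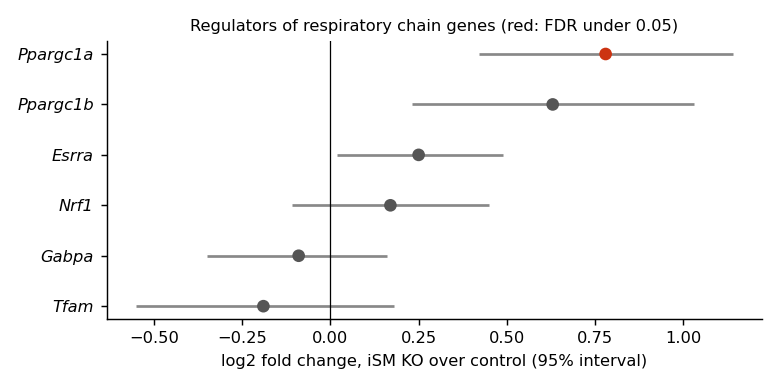
Points give the log2 fold change of 6 regulators with 95% intervals as horizontal lines, in red for an FDR under 0.05. Ppargc1a is red at 0.78, and the estimates fall from 0.63 for Ppargc1b to -0.19 for Tfam.

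Few genes of the other mitochondrial lists passed the test, where 4.26% of all tested genes were called higher and 3.30% lower. Neither the 36 tested genes of mitochondrial transcription and replication, nor the 23 of protein import, nor the 19 of fission, fusion and inner membrane shape held a gene with an FDR under 0.05, and their medians were -0.01, -0.02 and -0.09. Of 78 mitochondrial ribosomal proteins, 1 was higher, Mrps6 of the small subunit (log2 fold change 0.50, FDR = 0.027), with a median of -0.03. Of 36 further assembly factors, Higd1a alone was called. It sits with complexes III and IV and measured 33.6, 35.5 and 47.5 CPM in control aortas and 23.4, 24.3 and 23.8 CPM in iSM KO (log2 fold change -0.70, FDR = 0.0117). Of 26 citric acid cycle genes, Suclg2 was lower (log2 fold change -0.47, FDR = 0.0277), a subunit of the succinyl-CoA ligase at the step before complex II. Of 19 electron carrier and ubiquinone genes, Gpd2 was lower (log2 fold change -0.41, FDR = 0.0431), which feeds electrons from glycerol 3-phosphate to ubiquinone.

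Fatty acid oxidation had 3 lower and 0 higher genes among 20 tested, against 3.30% and 4.26% of all tested genes, with a median log2 fold change of -0.19. The lowest was Cpt1b, the muscle and brown fat form of the carnitine transferase that admits fatty acids. It measured 2.66, 3.43 and 5.70 CPM in control aortas and 0.883, 1.32 and 0.903 CPM in iSM KO (log2 fold change -1.91, FDR = 0.00856). Eci1 and Slc27a1 had log2 fold changes of -0.41 and -0.39 (FDR 0.0463 and 0.0496). Cpt1b is also a brown adipocyte marker, highest in control 3 like Ucp1.

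The hypoxia-inducible list, which holds Higd1a too, went both ways, with 2 genes (Hif3a and P4ha1) higher and 3 lower among 19 tested, against 4.26% and 3.30% of all tested genes, and a median of -0.16. The glycolytic regulator Pfkfb3 measured 63.6, 63.5 and 60.9 CPM in control aortas and 32.6, 33.2 and 34.4 CPM in iSM KO (log2 fold change -0.91, FDR = 0.000156). Ndrg1 had a log2 fold change of -1.04 (FDR = 0.000559), and Hif3a, a hypoxia-inducible factor subunit, one of 1.48 (FDR = 0.00856). Of the genes of the chain known for hypoxia, Cox4i2 rose and Ndufa4l2 was not called.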

How the data were processed

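RNA was extracted with TRIzol, and the authors sequenced ribosome-depleted libraries as paired-end reads of 150 bases and counted them with DRAGEN on mm10 with the annotation of Ensembl release 101. The authors deposited an estimated count per gene and library, neither normalized nor filtered, and 10.9% to 12.2% of those in a library were not whole. How reads matching several genes, or either strand, were counted is not given in the sources used here. Genes with copies are therefore uncertain. Gene totals per library were 24911609 to 40460467, and the precision depends on them and on the spread between libraries of a group. By the study's methods the aortas came from 3 mice of each group, so p-values measure the spread between mice, library preparation included.

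Counts were rounded. Tests used edgeR 4.0.16 under R 4.3.3 (TMM, glmQLFit, glmQLFTest, all 6 libraries, no covariates), where the study used DESeq2. Standard errors are the log2 fold change divided by the square root of F. CPM use the scaled totals of the tested genes, and deviations of library levels use log2(CPM + 0.1). GENCODE release M21 (GRCm38) gave transcript lengths and positions, taking the principal coding transcript. Copies were annotated pseudogenes found by blastn 2.17.0 with at least 95% identity over 100 bases and 80% of the copy. Genes named are the called ones, the mtDNA-encoded ones, Ndufs5 and its copy, per complex the highest per length and the extreme estimates, listed isoform pairs, and in each pathway list up to 3 called genes and 6 regulators. Others, such as Cox16, Sdha, Sdhd, Ndufb4 and Ucp1, were chosen after their values were seen. The genes of the chain and all lists were chosen with earlier results of these data known, so no test over a list is given. The scripts were tested on simulated data. Libraries of a group differed by more than sampling noise.

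Alternatives were DESeq2 1.42.0, limma-voom (limma 3.58.1), DESeq2's size factors, library totals alone, scaling from nuclear protein-coding genes, no filter, filterByExpr, the replicate number as a block, an FDR of 0.1, each library left out, and genes summed with pseudogenes of their name. Summing with near-identical copies was chosen after seeing the data.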

Additional observations from a re-analysis of the deposited data

How the results depend on the processing

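Sdhc and Cox4i2 were called higher under each of the alternatives run, DESeq2 adding Cox8a for 3 genes. The number of lower genes was less stable than that of higher ones. It was 3 as reported, 5 with DESeq2 and 5 with no filter on low counts. At an FDR under 0.1 it was 5, and 2 with near-identical copies summed. Calls over all genes moved too, with 547, 769, 863, 880 and 546 lower under these settings. The fit with no filter tested 30712 genes and the main one 16565. With each library left out, lower genes of the chain ranged from 1 to 9 and higher ones from 2 to 4. Over all genes these fits called 203 to 638 lower and 313 to 764 higher. The 9 lower genes came without control 2, and 1 remained, Ndufs5, without control 3 or any of the iSM KO libraries. Ndufs5 was past the threshold in all alternatives, with log2 fold changes of -1.77 to -1.66 unless it was summed with its copy (-0.41), which left 1 gene past a fold change of 2 in both fits that summed copies. The nuclear median ranged from -0.14 to -0.02 with a library left out and from -0.10 to -0.08 otherwise. The mtDNA-encoded median ranged from -0.34 to 0.22 with a library left out and from -0.16 to -0.04 otherwise.

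With the replicate number as a block, 1 gene, Ndufs5, was lower, while Cox6c (FDR = 0.098) and Atp5l (FDR = 0.106) missed the threshold. In that fit 2 genes of the chain were higher. Over all genes it called 318 lower and 457 higher, against 547 and 705 in the main fit. The sample titles do not say that the numbers pair the libraries. Deviations of same-numbered libraries from their group means correlated at -0.181, -0.0763 and -0.184 across genes. Those of differently numbered libraries correlated at 0.00863 to 0.171. With 3 libraries per group the deviations are tied to each other, so these values cannot exclude a pairing. Leaving out control 2 also brought mt-Nd6 to an FDR of 0.0302, and no filter brought it to 0.0451. Low counts limit Cox4i2, Cox6b2 and Ndufa4l2, and with 3 libraries per group small changes such as the nuclear median cannot be resolved gene by gene.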

Other observations

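The mitochondrial ribosomal RNA genes mt-Rnr1 and mt-Rnr2, which depletion is meant to remove, measured 62.3 and 80.8 CPM in control 2. They measured 6.01 to 13.2 CPM and 11.3 to 20.9 CPM in the other 5 libraries, so that the library with the most mitochondrial ribosomal RNA was not control 1, in which the mtDNA-encoded protein genes were highest. Cox8b and Cox7a1, left out by name, were highest in control 3, at 3.52 and 2.77 CPM, against at most 0.598 and 0.246 CPM elsewhere. Endothelial markers summed to 251 to 983 CPM across libraries with no gene of the list called, lowest in iSM KO 1 and highest in control 2.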
